A study of Homo sapiens with 5 samples.

Results

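CAY10603 and ACY1215 are small-molecule inhibitors of the deacetylase HDAC6, and their RNA profiles were set directly against each other in TOV21G cells. TOV21G is an established line of human ovarian carcinoma of the clear cell type. The comparison uses 2 of the 5 libraries of the series, 1 for each inhibitor. It covers the genes with at least 5 CPM (read counts divided by the scaled library size) in at least 1 of these 2 libraries, which were 11001 of 28442 genes in the table. The other libraries, used here only to place the levels, were the drug vehicle, a control hairpin (shControl) and a hairpin against HDAC6 (shHDAC6). All of them are TOV21G cells, 1 library per treatment, and both inhibitors came from Selleckchem. The hairpin cells were infected with virus and selected in puromycin, a step the labels tie to the hairpins only. Neither doses nor treatment times are given in the sources used here, so the levels under the inhibitors stand side by side and are not a comparison at matched dose.

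HDAC6 is a mainly cytoplasmic deacetylase that acts on alpha-tubulin, on the chaperone HSP90 and on the actin-binding protein cortactin. ACY1215, also called ricolinostat, and CAY10603 were both developed to act on it in preference to the nuclear deacetylases. The largest groups of genes that separated the inhibitors belong to the cell cycle. Cells copy their DNA and make most of their histones in S phase under the control of E2F transcription factors, and they build the mitotic spindle later with genes that carry a cell cycle homology region (CHR) in their promoters.

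Total counts were 54620960 for ACY1215 and 48776359 for CAY10603, and 43498805 to 57442767 over the 5 libraries. With 1 library on each side there is no test and no replicate check, and every interval below is a 95% interval for counting error only, exact binomial for a ratio and exact Poisson for a level. Ratios are log2 of CAY10603 over ACY1215, so a positive value means a higher level with CAY10603. Small structured RNAs took 4.25% of the counts with ACY1215 and 3.19% with CAY10603, and the part of this difference in any result was not tested. The labelled cell type was checked against a list of 17 genes of clear cell and epithelial identity, of which 9 passed the floor. PAX8, a transcription factor of Müllerian epithelium, stood at 144 CPM with ACY1215 and 103 with CAY10603, while NAPSA, a marker of clear cell tumours, was at 0.286 and 0.267 CPM. None of 15 leukocyte, 11 endothelial or 9 erythroid markers passed the floor, and their summed levels lay between 4.10 and 7.24, 0.851 and 1.85, and 0.210 and 0.533 CPM over the 5 libraries. The leukocyte genes CD3D and TYROBP had a count of 0 in each library. Of 12 fibroblast markers, ACTA2 and COL1A2 passed, and the summed level of the list was 81.7 CPM with ACY1215 and 80.6 with CAY10603.

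The profiles were close for most genes and far apart for a minority. By any amount, 49.5% of genes were higher and 50.5% lower with CAY10603. At least 2-fold apart were 472 genes (4.29%), of which 257 (2.34%) were higher and 215 (1.95%) were lower with CAY10603. The median ratio over all genes was -0.00, and the 5th and 95th percentiles were -0.64 and 0.67. The genes higher with CAY10603 were mostly cell cycle genes: 143 of 257 (55.6%) belong to the lists of mitosis, replication, recombination, G1 to S or histone genes, which hold 2.35% of all genes compared. None of the 215 lower genes belongs to them. Of the higher genes, 57 passed the floor with CAY10603 only, and of the lower genes 134 passed with ACY1215 only, so these had to differ. The lower genes were a weakly expressed set, with a median of 10.6 CPM with ACY1215 and 3.70 with CAY10603.

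**Figure D1:**
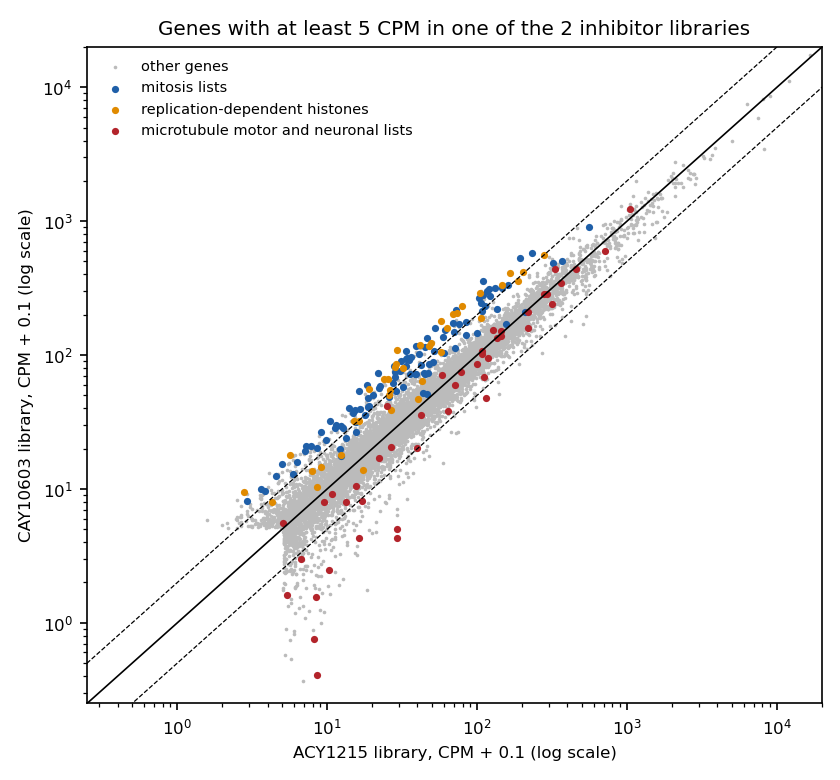
Level of each of the 11001 genes in the ACY1215 library (x axis) and the CAY10603 library (y axis), in CPM plus 0.1 on log scales; the solid line marks equal levels and the dashed lines 2-fold differences. On or above the upper dashed line lie 72 of 100 mitosis genes (blue) and 24 of 38 replication-dependent histones (orange), and KIF5C and KIF1A, among the microtubule motor and neuronal genes (red), lie far below the lower one.

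Among the 257 genes higher with CAY10603, ACY1215 gave the lowest of the 5 levels for 246 and CAY10603 the highest for 85. Among the 215 lower genes, ACY1215 gave the highest level for 212 and CAY10603 the lowest for 49. These genes were chosen by the ratio of the same 2 libraries, so the counts describe them and support nothing further. Over all genes ACY1215 was lowest for 30.4% and highest for 26.6%, while CAY10603 was lowest for 13.9% and highest for 12.4%. The median level of the 257 higher genes was 15.1 CPM with ACY1215, 34.9 with CAY10603 and 34.5 in vehicle. For the 215 lower genes the median in vehicle was 3.55 CPM, beside the 3.70 with CAY10603. Comparisons of each inhibitor with vehicle share that 1 vehicle library, and the comparison between the inhibitors shares each inhibitor's library with them, so the values are given side by side only.

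Genes of mitosis all lay on the same side. The 4 lists of mitosis genes hold 102 genes, and all 100 that passed the floor were higher with CAY10603, 72 of them at least 2-fold, with a median ratio of 1.26. Of these, 5 passed with CAY10603 only and had to be higher, and the median over the other 95 was 1.24. ACY1215 was the lowest of the 5 libraries for 97 of the 100. Their summed level was 6110 CPM with ACY1215, 12607 with CAY10603, 12392 in vehicle, 9171 in shControl and 11936 in shHDAC6. Set against vehicle, the median was -1.27 for ACY1215 and -0.01 for CAY10603. The control libraries themselves differed in this group, with a median of 0.50 for vehicle over shControl, and the part of that spread in the result was not tested.

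Among the cyclins and kinases that drive entry into mitosis, 15 of 20 were at least 2-fold higher with CAY10603, with a median ratio of 1.22. CCNA2, the S and G2 phase cyclin A2, was at 52.3 CPM with ACY1215 and 160 with CAY10603, beside 159 in vehicle, 97.4 in shControl and 153 in shHDAC6, a ratio of 1.61 (1.55 to 1.67). ACY1215 was thus well below the other 4 libraries, and CAY10603 was level with vehicle. CDC25C, a phosphatase that activates CDK1, was at 4.87 and 15.2 CPM with ACY1215 and CAY10603, a ratio of 1.63 (1.43 to 1.85). FOXM1, a transcription factor of the mitotic genes, was at 7.16 and 21.0 CPM, a ratio of 1.55. The kinases PBK and NEK2 had ratios of 1.47 and 1.38. WEE1 and CKS2, a kinase that restrains CDK1 and a small CDK-binding subunit, were the members with the smallest ratios, at 0.14 and 0.11.

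Motors and proteins of the spindle behaved alike, with 22 of 30 at least 2-fold higher and a median of 1.22. KIF20A, a kinesin of cytokinesis, was at 33.4 CPM with ACY1215, 107 with CAY10603, 116 in vehicle, 82.1 in shControl and 131 in shHDAC6, a ratio of 1.68. DLGAP5, which stabilizes spindle fibres, was at 71.7 and 216 CPM with ACY1215 and CAY10603, a ratio of 1.59 (1.54 to 1.64). KIF2C, a microtubule depolymerase at the centromere, and the spindle kinesins KIF14 and KIF15 had ratios of 1.57, 1.53 and 1.53. Every one of the 30 genes of this list was lowest with ACY1215.

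Kinetochore and centromere genes, which attach chromosomes to the spindle, had a median of 1.33, and 21 of 29 were at least 2-fold higher. NDC80, the microtubule-binding subunit of the outer kinetochore, was at 18.4 CPM with ACY1215 and 59.3 with CAY10603, and at 63.4, 39.5 and 53.8 in vehicle, shControl and shHDAC6, a ratio of 1.68 (1.58 to 1.79). Its complex partners NUF2 and SPC25 had ratios of 1.58 and 1.56. BIRC5, the survivin subunit of the chromosomal passenger complex, was at 33.3 and 92.6 CPM with ACY1215 and CAY10603, a ratio of 1.47. OIP5, which helps to load the centromeric histone, was at 4.47 and 12.4 CPM.

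For condensins, cohesion and anaphase regulators the median was 1.26, with 14 of 21 at least 2-fold higher. NCAPH, a subunit of condensin I, was at 16.1 CPM with ACY1215 and 53.6 with CAY10603, and at 53.8 in vehicle, 36.5 in shControl and 51.8 in shHDAC6, a ratio of 1.74 (1.63 to 1.85). FBXO5 (EMI1), which restrains the anaphase-promoting complex, had the largest ratio of the list, 1.77 (1.67 to 1.87), from 21.6 to 73.6 CPM. HMGB2, a DNA-bending chromatin protein, was at 109 CPM with ACY1215 against 359 with CAY10603, 362 in vehicle, 195 in shControl and 360 in shHDAC6. CDCA5, the cohesion protein sororin, and ESCO2, which acetylates cohesin, had ratios of 1.63 and 1.53.

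The promoters of these genes were read from RefSeq (build GRCh38.p14), as the 300 bases from 250 before to 50 after the start of the gene. A window was matched by gene identifier for 8866 of the 11001 genes (80.6%). The CHR was searched as TTTGAA or TTCGAA on either strand, and a match is a description of the letters, not a bound site. It was present in 56 of 82 mitosis promoters (68.3%), in 40.0% of the promoters of genes at least 2-fold higher with CAY10603, in 8.59% of those at least 2-fold lower, and in 978 of all 8866 promoters. The 79 promoters of at least 2-fold higher genes outside the cell cycle and histone lists held it in 26 (32.9%). Of 22 H2A and H2B histone promoters, 9 (40.9%) held it, and 16 of the 22 windows overlap another of them and can share a match. The windows were on average 60.0% G and C for genes at least 2-fold higher, 66.5% for those lower and 64.9% over all. Those of the H2A and H2B histones were 42.7% G and C. The part of base content in the motif shares was not tested. Stretches of 100 bases from within the 250 bases before the start are shown for 4 mitosis genes, with the CHR in capitals. These genes were taken in order of ratio from the members with a match before the start, though not from every chromosome. TTCAAA is TTTGAA read on the other strand.
CDCA5: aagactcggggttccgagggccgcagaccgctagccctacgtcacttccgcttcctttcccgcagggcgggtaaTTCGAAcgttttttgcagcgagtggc
DLGAP5: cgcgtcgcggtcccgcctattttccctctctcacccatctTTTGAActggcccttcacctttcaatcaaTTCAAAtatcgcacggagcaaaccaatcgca
SPC25: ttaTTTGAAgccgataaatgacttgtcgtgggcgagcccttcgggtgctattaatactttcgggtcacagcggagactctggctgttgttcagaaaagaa
KIF15: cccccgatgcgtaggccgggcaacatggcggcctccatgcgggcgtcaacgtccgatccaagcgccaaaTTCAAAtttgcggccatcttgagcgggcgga
They lie at chr11:65084041-65084140 (CDCA5), chr14:55191664-55191763 (DLGAP5) and chr2:168890581-168890680 (SPC25) on the minus strand, and at chr3:44761690-44761789 (KIF15) on the plus strand. In these stretches the CHR lies nearest to the start of the gene in CDCA5, at 21 bases before it, and in KIF15, at 30 bases before it. In DLGAP5 and SPC25 the nearest match shown lies 104 and 242 bases before the start. Their windows of 300 bases hold 3 and 2 matches, of which 2 and 1 are shown.

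DNA replication genes were higher with CAY10603 by a smaller amount than the mitosis genes. All 38 genes of the replication fork and origins were higher, 17 of them at least 2-fold, with a median of 0.89, and medians against vehicle of -0.90 for ACY1215 and -0.00 for CAY10603. Of these, 1 passed with CAY10603 only and had to be higher, and the median over the other 37 was 0.88. CLSPN, claspin, which couples the fork to the checkpoint, was at 39.1 CPM with ACY1215, 105 with CAY10603, 96.1 in vehicle, 85.4 in shControl and 103 in shHDAC6, a ratio of 1.42. CDC45, a part of the replicative helicase, was at 14.3 and 37.5 CPM with ACY1215 and CAY10603, a ratio of 1.39. MCM10, ORC1 and CDC6, which act in the assembly and firing of origins, had ratios of 1.38, 1.28 and 1.25. ACY1215 was the lowest library for 37 of the 38 genes.

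Enzymes of nucleotide synthesis and chromatin assembly had a median of 0.90, with 18 of 19 genes higher and 7 at least 2-fold. RRM2, the regulated subunit of ribonucleotide reductase, was at 41.8 CPM with ACY1215, 113 with CAY10603, 112 in vehicle, 117 in shControl and 140 in shHDAC6, a ratio of 1.44 (1.36 to 1.51). Thymidine kinase TK1 had a ratio of 1.19, the histone chaperone ASF1B of 1.35 and UHRF1, which maintains DNA methylation, of 1.17. RRM1, the large subunit of ribonucleotide reductase, fell just short of 2-fold at 1.00, as did CDT1, a licensing factor of origins, at 0.99. On the other side of that boundary DSN1, a kinetochore gene, and EPC1, a subunit of a histone acetyltransferase complex, just reached it. Among the lower genes HAPLN3 and PDE5A just reached 2-fold, and SFXN3 and MVP fell just short of it, all at -1.0.

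All 30 genes of homologous recombination and the Fanconi pathway were higher with CAY10603, 15 of them at least 2-fold, with a median of 1.01. Of these, 3 passed with CAY10603 only and had to be higher, and the median over the other 27 was 1.04. EXO1, a nuclease that resects DNA ends, was at 22.2 CPM with ACY1215, 71.4 with CAY10603, 68.1 in vehicle, 48.1 in shControl and 53.4 in shHDAC6, a ratio of 1.68 (1.59 to 1.78). BRCA2, which acts in the repair of DNA breaks, was at 17.6 and 51.0 CPM with ACY1215 and CAY10603, a ratio of 1.53 (1.42 to 1.64). The structure-specific nuclease subunit EME1 and the recombination factor MND1 had ratios of 1.58 and 1.41.

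Regulators of the step from G1 to S were divided. Of 25 genes 17 were higher and 8 lower with CAY10603, with a median of 0.26, and 7 were at least 2-fold higher. Of the 25, 3 passed with CAY10603 only and 1 with ACY1215 only, and the median over the other 21 was 0.22. E2F1 and E2F2, activators of S phase genes, were at 2.42 and 4.91 CPM with ACY1215 and 5.74 and 13.3 with CAY10603, ratios of 1.23 (0.94 to 1.56) and 1.43 (1.22 to 1.65). Both passed the floor with CAY10603 only and had to be higher. The repressor E2F8 had a ratio of 1.65, cyclin CCNE2 of 1.40 and the CDK inhibitor CDKN2C of 1.5. The D-type cyclins CCND2 and CCND3 were on the other side, at -0.86 and -0.40, as were the CDK inhibitors CDKN2B at -0.80, CDKN2A at -0.55 and CDKN1A (p21) at -0.41. CDKN1A was at 204 CPM with ACY1215 and 154 with CAY10603, below the 337 in shControl and 326 in shHDAC6 and with 151 in vehicle. Genes driven by p53 as a group had a median of 0.01, with 14 of 25 higher and none 2-fold apart.

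E2F matches, searched as TTTCGCGC, TTTGGCGC or TTTCCCGC on either strand, followed replication more than mitosis. They were present in 17 of 33 replication promoters (51.5%), in 8 of 82 mitosis promoters (9.76%) and in 5.05% of all promoters, while the CHR was present in 6.06% of replication promoters. Genes at least 2-fold higher with CAY10603 held an E2F match in 18.0% and genes at least 2-fold lower in 1.23%. At least 2 CCAAT boxes were found in 40.5% of the former, 9.82% of the latter and 14.6% of all promoters. Among the 79 promoters of higher genes outside the cell cycle and histone lists, these shares were 8.86% (E2F) and 27.85% (CCAAT). The E2F match is in capitals in 3 stretches of replication genes, namely the helicase subunit MCM7, the GINS subunit GINS2 and the DNA ligase LIG1. These stretches were chosen in the same way as those of the mitosis genes. GCGGGAAA is TTTCCCGC on the other strand.
MCM7: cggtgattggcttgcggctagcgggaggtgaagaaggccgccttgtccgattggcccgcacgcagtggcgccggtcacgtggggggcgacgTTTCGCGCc
GINS2: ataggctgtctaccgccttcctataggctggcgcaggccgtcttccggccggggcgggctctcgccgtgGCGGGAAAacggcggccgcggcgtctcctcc
LIG1: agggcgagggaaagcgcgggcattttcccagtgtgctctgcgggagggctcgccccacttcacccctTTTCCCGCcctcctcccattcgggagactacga
They lie at chr7:100101398-100101497 (MCM7), chr16:85688955-85689054 (GINS2) and chr19:48170426-48170525 (LIG1), all on the minus strand. The ratios of these genes were 1.24, 1.15 and 1.13.

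**Figure D2:**
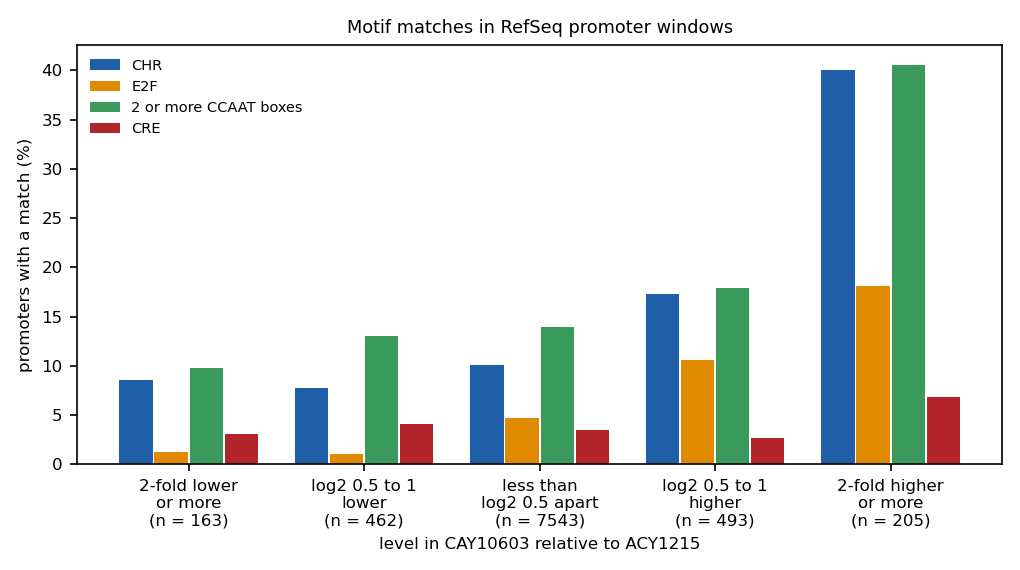
Percent of RefSeq promoter windows with a CHR, an E2F match, at least 2 CCAAT boxes or a CRE (y axis), for genes grouped by their ratio between CAY10603 and ACY1215 (x axis, with the number of promoters in each group). The CHR share is 8.59% in the group lowest with CAY10603 and 40.0% in the group highest with it, and the E2F share goes from 1.23% to 18.0%.

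Replication-dependent histones, whose transcripts are made in S phase and end without a poly(A) tail, were again nearly all higher with CAY10603. A total RNA library keeps such transcripts. Of 38 that passed the floor 37 were higher, 24 at least 2-fold, with a median of 1.23. Of these, 2 passed with CAY10603 only and had to be higher, and the median over the other 36 was also 1.23. Histone genes are near-identical copies, so reads can be split among them and single values are uncertain. Summed over the 5 classes their level was 2182 CPM with ACY1215, 4986 with CAY10603, 5715 in vehicle, 3721 in shControl and 6083 in shHDAC6. CAY10603 was below vehicle here as well, with a median of -0.19 against -1.31 for ACY1215. This differs from the mitosis genes, where the median of CAY10603 against vehicle was -0.01.

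By class the median ratio was 1.5 for H2B, 1.48 for H3, 1.34 for H2A, 1.01 for the linker histone H1 and 0.78 for H4. HIST1H2BO had the second largest ratio of all genes named by symbol, 1.91 (1.83 to 1.99), with 29.0 CPM in ACY1215, 109 in CAY10603, 123 in vehicle, 77.5 in shControl and 138 in shHDAC6. HIST1H2BF and HIST1H2BL had ratios of 1.80 and 1.67, at lower levels of 9.46 and 17.8 CPM with CAY10603. HIST2H3C was at 57.1 CPM with ACY1215 and 180 with CAY10603, and its vehicle level of 82.7 was nearer to ACY1215, which sets it apart from the H2B genes. HIST1H2AB and HIST2H2AB had ratios of 1.55 and 1.59, HIST1H1D of 1.08 and HIST2H4A of 1.32. Among 9 histone variants made outside S phase, all 9 were higher with a median of 0.46, led by H2AFX, the variant phosphorylated at DNA breaks, at 1.04 and H2AFZ at 0.95.

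The H2A and H2B promoters were searched for the octamer ATTTGCAT on either strand, a motif added after the values were seen because it is known from H2B promoters. It was present in 15 of 22 (68.2%) and in 1.32% of all promoters, and 16 of the 22 windows overlap the window of another H2A or H2B gene, which can then hold the same match. The octamer is in capitals in 3 stretches (ATGCAAAT is ATTTGCAT on the other strand).
HIST1H2BO: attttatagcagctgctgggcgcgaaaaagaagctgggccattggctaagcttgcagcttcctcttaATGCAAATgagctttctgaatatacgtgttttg
HIST1H2BF: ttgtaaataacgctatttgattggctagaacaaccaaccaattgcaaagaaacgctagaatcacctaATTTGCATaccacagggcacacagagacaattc
HIST2H2AB: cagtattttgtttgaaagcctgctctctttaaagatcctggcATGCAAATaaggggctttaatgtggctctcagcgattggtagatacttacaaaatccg
They lie at chr6:27893209-27893308 (HIST1H2BO) and chr6:26199338-26199437 (HIST1H2BF) on the plus strand and at chr1:149888116-149888215 (HIST2H2AB) on the minus strand. RefSeq lists the same genes as H2BC17, H2BC7 and H2AC21.

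**Figure D3:**
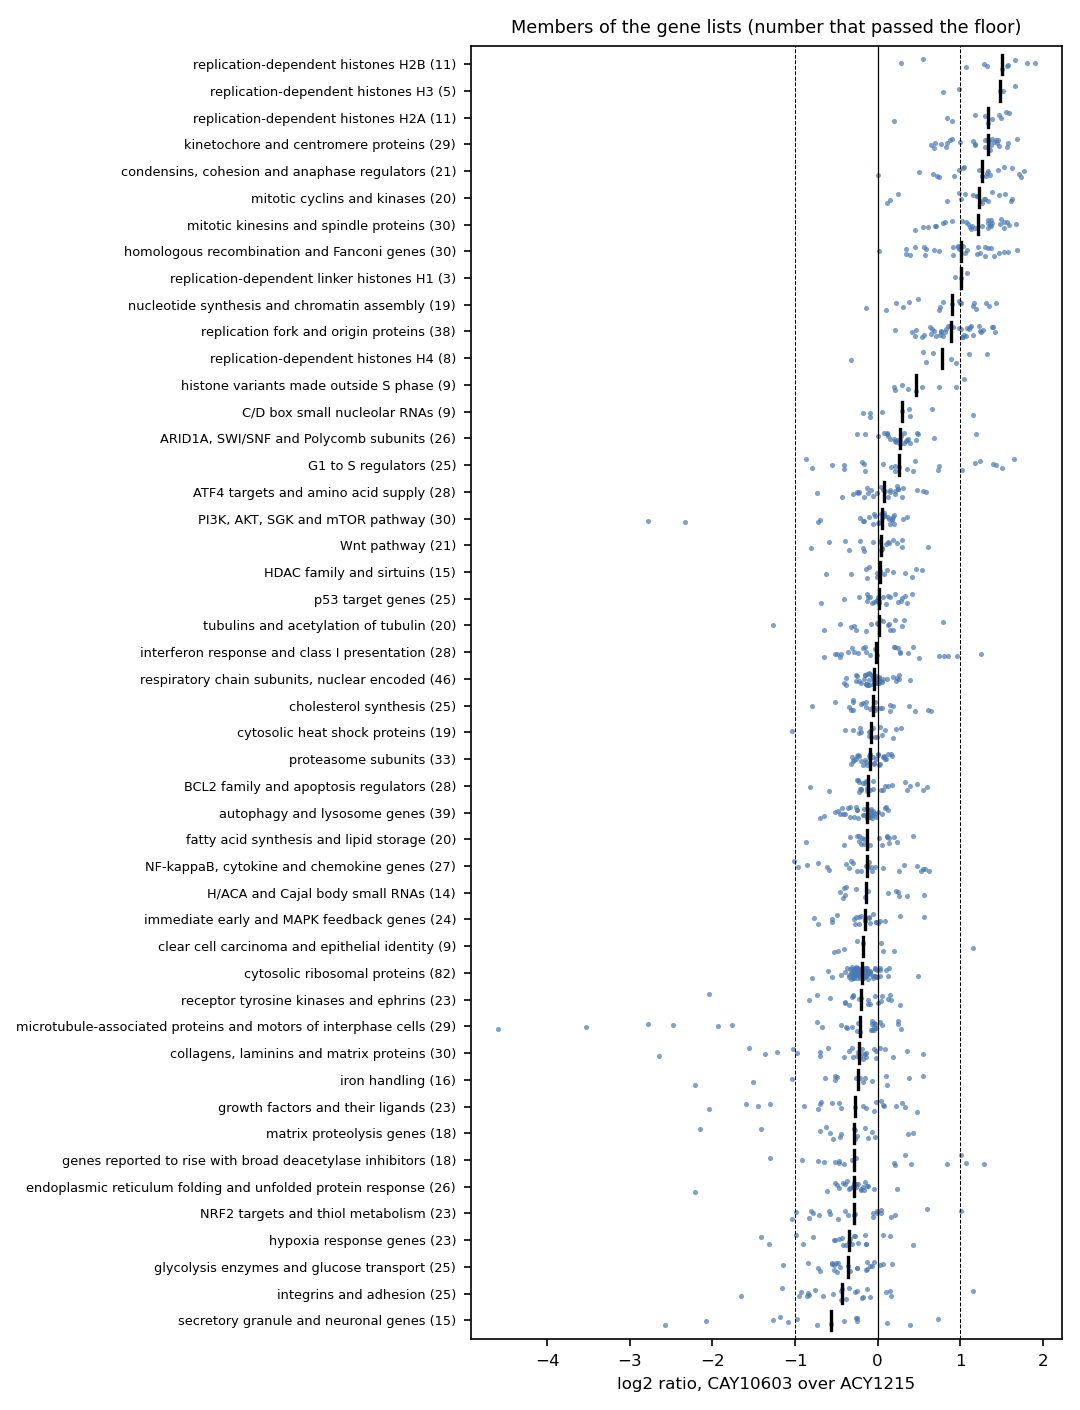
Ratio of CAY10603 over ACY1215 (x axis, log2) for each gene of each list that passed the floor (points, number in brackets), with the list's median as a bar and dashed lines at 2-fold. The replication-dependent histone, mitosis, recombination and replication lists lie to the right, with medians from 0.78 to 1.5, and the secretory granule and neuronal list lies lowest with a median of -0.57.

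Chromatin regulators showed a smaller shift. Of 26 SWI/SNF and Polycomb subunits 24 were higher with CAY10603, with a median of 0.27, and PHF19, a Polycomb accessory protein, was the member past 2-fold at 1.19. The SWI/SNF subunits SMARCB1 and PBRM1 had ratios of 0.68 and 0.46 and the Polycomb methyltransferase EZH2 of 0.48. ARID1A, the SWI/SNF subunit named in the series title, was at 9.03 CPM with ACY1215, 10.4 with CAY10603, 9.27 in vehicle, 9.43 in shControl and 11.8 in shHDAC6, a ratio of 0.20 (0.02 to 0.38).

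The target itself differed at the RNA level. HDAC6 was at 32.9 CPM with ACY1215 and 47.9 with CAY10603, a ratio of 0.54 (0.45 to 0.63), with 50.1 in vehicle, 49.0 in shControl and 29.3 in shHDAC6. The level with ACY1215 was near that of the hairpin library, and the level with CAY10603 was near vehicle. An inhibitor acts on the protein, so the transcript is no measure of inhibition. Over the family of deacetylases and sirtuins the median was 0.03, with 8 of 15 higher. Of these, 1 passed with CAY10603 only and had to be higher, and the median over the other 14 was 0.01. HDAC5, a class II deacetylase, was lower with CAY10603 at -0.63, and the sirtuins SIRT3, SIRT1 and SIRT5 were higher at 0.47, 0.41 and 0.33.

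Tubulins, whose alpha chains HDAC6 deacetylates, had a median of 0.01 and moved apart by isotype. Of the 20 genes of this list above the floor, 1 passed with ACY1215 only, and the median over the other 19 was 0.02. TUBA1B was at 437 CPM with ACY1215, 753 with CAY10603, 811 in vehicle, 763 in shControl and 930 in shHDAC6, a ratio of 0.79 (0.76 to 0.81). TUBB2B was on the other side, at 97.9 CPM with ACY1215 and 40.6 with CAY10603, beside 37.5 to 47.7 in the other 3 libraries, a ratio of -1.27 (-1.34 to -1.19). TUBB3, a beta-tubulin of neurons, was at 318 and 202 CPM with ACY1215 and CAY10603, with 176 in vehicle and 372 and 344 in the hairpin libraries. For TUBB3 the hairpin libraries were therefore the highest, unlike for TUBB2B.

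The lowest ratio of the genes named by symbol was that of KIF5C, a kinesin heavy chain of neurons. It was at 8.40 CPM (7.63 to 9.22) with ACY1215 and 0.308 (0.173 to 0.509) with CAY10603, and at 0.213 to 0.286 in vehicle and the hairpin libraries. Its ratio of -4.60 (-5.62 to -4.03), or 24.3-fold, rests on 15 counts with CAY10603. KIF1A, a kinesin that carries synaptic vesicle precursors, was at 8.05 CPM with ACY1215 and between 0.484 and 0.674 in the other 4 libraries, a ratio of -3.54 (-4.18 to -3.09). Both genes were thus below 1 CPM in all libraries but ACY1215. On the scale of the authors' FPKM plus 0.1, which shrinks the differences of weakly expressed genes, the ratios were -2.50 for KIF5C and -2.81 for KIF1A.

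The microtubule-associated proteins followed the same pattern at a smaller size. MAP1B was at 29.1 CPM with ACY1215, 4.22 with CAY10603, 3.50 in vehicle, 6.95 in shControl and 4.15 in shHDAC6, a ratio of -2.78 (-3.01 to -2.58). MAPT, which encodes tau, was at 8.28 and 1.46 CPM with ACY1215 and CAY10603, a ratio of -2.47. FEZ1, a kinesin adaptor, had a ratio of -1.93. Across the list of interphase microtubule-associated proteins and motors 24 of 29 genes were lower with CAY10603 and 6 at least 2-fold, but the median was only -0.21. It was -0.07 over the members at 5 CPM or more in both libraries, and the 6 genes that passed with ACY1215 only had to be lower.

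Of 36 secretory granule and neuronal genes 15 passed the floor, of which 12 were lower with CAY10603 and 5 at least 2-fold, with a median of -0.57. VGF, SNAP25 and PCSK1 passed with ACY1215 only and had to be lower, and the median over the other 12 was -0.33. VGF, a secreted neuropeptide precursor, was at 29.3 CPM (27.9 to 30.8) with ACY1215, 4.89 (4.29 to 5.56) with CAY10603, 2.64 in vehicle, 1.38 in shControl and 2.19 in shHDAC6, a ratio of -2.57 (-2.79 to -2.38). CAY10603 was the second highest library for VGF, though far below ACY1215. SNAP25, a synaptic fusion protein, was at 10.2 and 2.39 CPM with ACY1215 and CAY10603, a ratio of -2.08, and the prohormone convertase PCSK1 at 6.61 and 2.88 CPM, a ratio of -1.19. The cell adhesion genes L1CAM and NRCAM had ratios of -1.26 and -1.08. NPTX1, a neuronal pentraxin, and CPE, a carboxypeptidase of granules, were on the other side at 0.73 and 0.40.

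The cAMP response element (CRE), searched as TGACGTCA and added after the values were seen, is shown in capitals for VGF and PCSK1, which were also picked after their values were seen.
VGF: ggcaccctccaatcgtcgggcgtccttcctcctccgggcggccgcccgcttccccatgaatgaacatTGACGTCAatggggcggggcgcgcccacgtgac
PCSK1: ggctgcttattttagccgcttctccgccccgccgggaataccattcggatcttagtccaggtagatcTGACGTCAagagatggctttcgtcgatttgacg
They lie on the minus strand at chr7:101165616-101165715 and chr5:96433293-96433392. The CRE was present in 4 of 34 promoters (11.8%) of the motor and neuronal lists, VGF and PCSK1 among them. It was present in 3.07% of promoters of genes at least 2-fold lower and in 3.50% of all promoters.

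**Figure D4:**
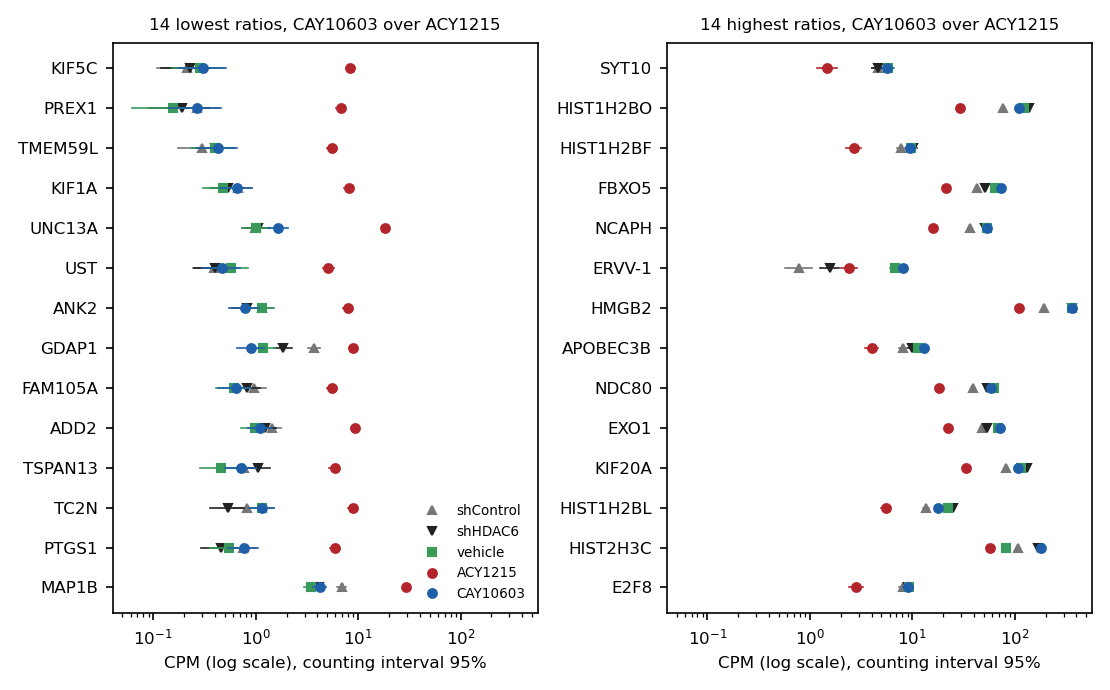
Level in each of the 5 libraries (x axis, CPM on a log scale, bars are 95% counting intervals) of the 14 genes with the lowest and the 14 with the highest ratio of CAY10603 over ACY1215. In the left panel ACY1215 lies to the right of the other 4 libraries for each gene, and in the right panel it lies to the left of them for each gene but ERVV-1.

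The other genes at the lower end had a like profile over the libraries. PREX1, an exchange factor for Rac, was at 6.74 CPM with ACY1215 and at 0.154 to 0.267 CPM in the other libraries, a ratio of -4.47 (-5.58 to -3.86). UNC13A, which primes synaptic vesicles, was at 18.4 CPM with ACY1215, 1.67 with CAY10603 and 0.975 to 1.05 in the rest, a ratio of -3.43. TMEM59L and UST, a sulfotransferase of glycosaminoglycans, had ratios of -3.58 and -3.33, and the membrane skeleton genes ANK2 and ADD2 had ratios of -3.28 and -3.04. GDAP1, a protein of the mitochondrial outer membrane, was at 9.01 CPM with ACY1215 and 0.905 with CAY10603, but at 3.74 in shControl. PTGS1, the prostaglandin synthase COX-1, TSPAN13, TC2N and FAM105A had ratios between -3.05 and -2.89. All of the 15 lowest genes passed the floor with ACY1215 only.

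Of the 15 genes at the upper end, 3 were outside the cell cycle and histone lists. All 3 were below 5 CPM with ACY1215, so they passed with CAY10603 only and had to be higher. SYT10, a synaptotagmin, had the largest ratio, 1.92 (1.58 to 2.33), at 1.49 CPM with ACY1215, 5.72 with CAY10603 and 4.61 to 5.84 in the other libraries. APOBEC3B, a cytidine deaminase that edits DNA, was at 4.0 and 13.1 CPM with ACY1215 and CAY10603, with 11.5 in vehicle, a ratio of 1.70 (1.49 to 1.95). ERVV-1, an endogenous retroviral envelope gene, was at 2.42 and 8.14 CPM, with 6.78 in vehicle but only 0.780 in shControl and 1.56 in shHDAC6, so that it separated the drug libraries from the hairpin libraries as well.

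Genes of the cell surface and matrix were lower with CAY10603 in most cases. Of 25 integrins and adhesion genes 21 were lower, with a median of -0.44, and medians against vehicle of 0.68 for ACY1215 and 0.15 for CAY10603. ITGA2, a collagen-binding integrin chain, was at 24.5 CPM with ACY1215, 7.75 with CAY10603, 5.64 in vehicle, 8.55 in shControl and 7.26 in shHDAC6, a ratio of -1.65 (-1.83 to -1.49). ITGA1, another collagen receptor, and the laminin receptors ITGA6 and ITGA3 had ratios of -1.15, -0.95 and -0.93. EPCAM, an adhesion molecule of epithelia, ran opposite, at 29.4 CPM with ACY1215 and 65.3 with CAY10603, with 58.5 in vehicle, a ratio of 1.15 (1.06 to 1.24).

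Collagens, laminins and other matrix proteins had a median of -0.23, with 25 of 30 lower and 5 at least 2-fold. It was -0.19 over the 27 that passed in both libraries, the other 3 having passed with ACY1215 only. COL6A1, a chain of collagen VI, was at 33.9 CPM with ACY1215, 13.1 with CAY10603 and at most 14.6 in the other libraries, a ratio of -1.37. ACY1215 was thus the high library, and CAY10603 was near the rest. COL5A1 had a ratio of -1.55, COL6A2 of -2.64 at 5.22 and 0.802 CPM, and LAMB3 of -1.22. Of 18 matrix proteolysis genes 16 were lower with a median of -0.28. PLAUR, the urokinase receptor, was at 21.0 CPM with ACY1215, 4.69 with CAY10603 and 3.07 to 3.77 in the other libraries, a ratio of -2.15. PLAUR passed the floor with ACY1215 only and had to be lower. The PLAUR ligand PLAU had a ratio of -0.63 and the protease inhibitor SERPINE2 of -1.42.

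Growth factors and their receptors leaned the same way. AREG and EREG, ligands of the EGF receptor, were at 34.2 and 512 CPM with ACY1215 and at 8.31 and 170 with CAY10603, ratios of -2.04 (-2.20 to -1.89) and -1.60 (-1.63 to -1.56). AREG was at 7.71 to 9.06 CPM and EREG at 185 to 261 CPM in the other libraries, so CAY10603 did not exceed them for EREG. IGFBP3, which binds insulin-like growth factors, was at 71.8 and 26.2 CPM, but at 53.7 in shControl. Over the list of growth factors 16 of 23 were lower with a median of -0.28. Of these, 1 passed with ACY1215 only and had to be lower, and the median over the other 22 was -0.23. Among receptor tyrosine kinases and ephrins 16 of 23 were lower with a median of -0.20, led by EPHB2 at -2.04, from 29.1 to 7.03 CPM, with IGF1R at -0.83 and FGFR1 at -0.74.

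Signalling downstream had few large differences. The PI3K, AKT and mTOR list had a median of 0.05, but PPP2R2C, a regulatory subunit of protein phosphatase 2A, was at 15.7 CPM with ACY1215, 3.08 with CAY10603 and 3.11 to 3.94 in the other libraries, a ratio of -2.33 (-2.61 to -2.09). PPP2R2C was among the 3 genes of this list that passed the floor with ACY1215 only and had to be lower. The median over the other 27 was 0.06. Immediate early and MAPK feedback genes had a median of -0.15, with 19 of 24 lower. DUSP5, a phosphatase that acts on ERK, had a ratio of -0.77 and KLF6 of -0.72. Of the NF-kappaB, cytokine and chemokine list 19 of 27 were lower with a median of -0.13. Of these, 2 passed with ACY1215 only and had to be lower, and the median over the other 25 was -0.12. The cytokine IL18 was at 329 and 169 CPM with ACY1215 and CAY10603, a ratio of -0.96. Interferon response genes had a median of -0.02, with 13 of 28 higher and 15 lower, down to -0.65. IFIT3 was higher at 0.96 and the immunoproteasome subunit PSMB10 at 1.25, though at 2.51 and 6.03 CPM. PSMB10 was among the 3 interferon genes that passed with CAY10603 only and had to be higher. The median over the 25 that passed in both libraries was -0.087, and it was -0.24 over the 15 of at least 20 CPM. The Wnt list had a median of 0.03, with WNT5A at 0.61 and DKK3, a secreted relative of the Dickkopf inhibitors, at -0.81.

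Glycolysis genes were lower with CAY10603 in most cases, by smaller amounts. Genes of fatty acid synthesis and lipid storage were lower in 11 of 20 cases, beside 50.5% of all genes. Of 25 glycolysis and glucose transport genes 22 were lower with CAY10603, with a median of -0.36, and medians against vehicle of 0.61 for ACY1215 and 0.19 for CAY10603. SLC2A3, the glucose transporter GLUT3, was at 189 CPM with ACY1215, 85.9 with CAY10603, 63.9 in vehicle, 95.7 in shControl and 80.8 in shHDAC6, a ratio of -1.14 (-1.19 to -1.09). PFKFB3, which makes the activator of phosphofructokinase, was at 205 and 114 CPM, a ratio of -0.85. The list as a whole was no higher with ACY1215, at 16471 CPM summed, than in shControl, at 16646, while CAY10603 was at 13925 and vehicle at 12251.

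Hypoxia response genes were lower in 20 of 23 cases, with a median of -0.34. Of these, 1 passed with ACY1215 only and had to be lower, and the median over the other 22 was also -0.34. CA12, a carbonic anhydrase, was at 16.7 CPM with ACY1215 and 6.72 with CAY10603, a ratio of -1.31, with 8.96 in vehicle and 13.7 in shControl. EGLN3, an oxygen-sensing prolyl hydroxylase, ANGPTL4 and ADM had ratios of -1.42, -0.99 and -0.90, and ADM at 10.1 CPM in shControl was near its 10.7 with ACY1215. The core of the hypoxia response element, ACGTG or GCGTG on either strand, was present in 15 of 18 promoters of this list (83.3%) and in 64.8% of all promoters. It was present in 69.6% of glycolysis promoters and in 57.7% of promoters of genes at least 2-fold lower with CAY10603.

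Genes that handle oxidants and iron held some larger ratios. NRF2 targets and genes of thiol metabolism had a median of -0.29, with 17 of 23 lower. TXNRD1, thioredoxin reductase, was at 774 CPM with ACY1215, 389 with CAY10603, 391 in vehicle, 350 in shControl and 309 in shHDAC6, a ratio of -0.99 (-1.02 to -0.97). KEAP1, which holds NRF2 in check, ran opposite at 12.9 and 26.1 CPM with ACY1215 and CAY10603, a ratio of 1.01 (0.88 to 1.15), and was at 24.9 to 32.4 CPM in the other libraries. HMOX1, heme oxygenase, had a ratio of -1.04. Of 16 genes that handle iron 12 were lower and 4 higher with CAY10603, with a median of -0.23. Of these, 1 passed with ACY1215 only and had to be lower, and the median over the other 15 was -0.21. STEAP3 and CYBRD1, which reduce iron, were lower with CAY10603 at -2.21 and -1.51, and ferritin heavy chain FTH1 was lower at -0.64. BDH2 was higher at 0.55.

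Folding genes of the endoplasmic reticulum were lower with CAY10603 in 25 of 26 cases, with a median of -0.29. CLGN, calmegin, was at 29.2 CPM with ACY1215, 6.27 with CAY10603 and 2.97 to 5.97 in the other libraries, a ratio of -2.21 (-2.40 to -2.04). HSPA5, the chaperone BiP, had a ratio of -0.47 and EDEM1, which acts in degradation of misfolded glycoproteins, of -0.61. Cytosolic heat shock proteins had a median of -0.08, with CRYAB, a small heat shock protein, past 2-fold at -1.04. Autophagy and lysosome genes were lower in 34 of 39 cases, yet the median was only -0.13. The list of ATF4 targets and amino acid supply had a median of 0.08 between the inhibitors, and medians against the shared vehicle library of -0.35 for ACY1215 and -0.33 for CAY10603. Vehicle over shControl had a median of 0.35 in the same list.

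Cytosolic ribosomal proteins were lower with CAY10603 in 75 of 82 cases, by a median of -0.19, and ACY1215 was the highest of the 5 libraries for 66 of them. RPL27 was at 1206 CPM with ACY1215 and 824 with CAY10603, a ratio of -0.55, and RPS21 and RPL28 had ratios of -0.60 and -0.80. Nuclear-encoded respiratory chain subunits, proteasome subunits and cholesterol synthesis genes had medians of -0.05, -0.09 and -0.06, with no member at least 2-fold apart. BCL2 family and apoptosis genes had a median of -0.11, with 17 of 28 lower and 11 higher. The inhibitor BIRC3 was at -0.59 and the effector BAK1 at -0.81, while the caspases CASP9 and CASP2 were higher at 0.59 and 0.54.

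Genes reported to rise with broad deacetylase inhibitors held both directions. Of 18 that passed, 8 were higher and 10 lower with CAY10603, with a median of -0.29. CTGF and SLC22A17 passed with ACY1215 only and had to be lower, and the median over the other 16 was -0.029. The higher ones at least 2-fold were the histones HIST1H1C, HIST1H2BD and HIST2H2BE, at 1.01, 1.06 and 1.29, which the histone lists hold too. CTGF, a matricellular protein, was the lower one past 2-fold, at 7.84 CPM with ACY1215 and 3.17 with CAY10603, a ratio of -1.30 (-1.59 to -1.04).

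**Figure D5:**
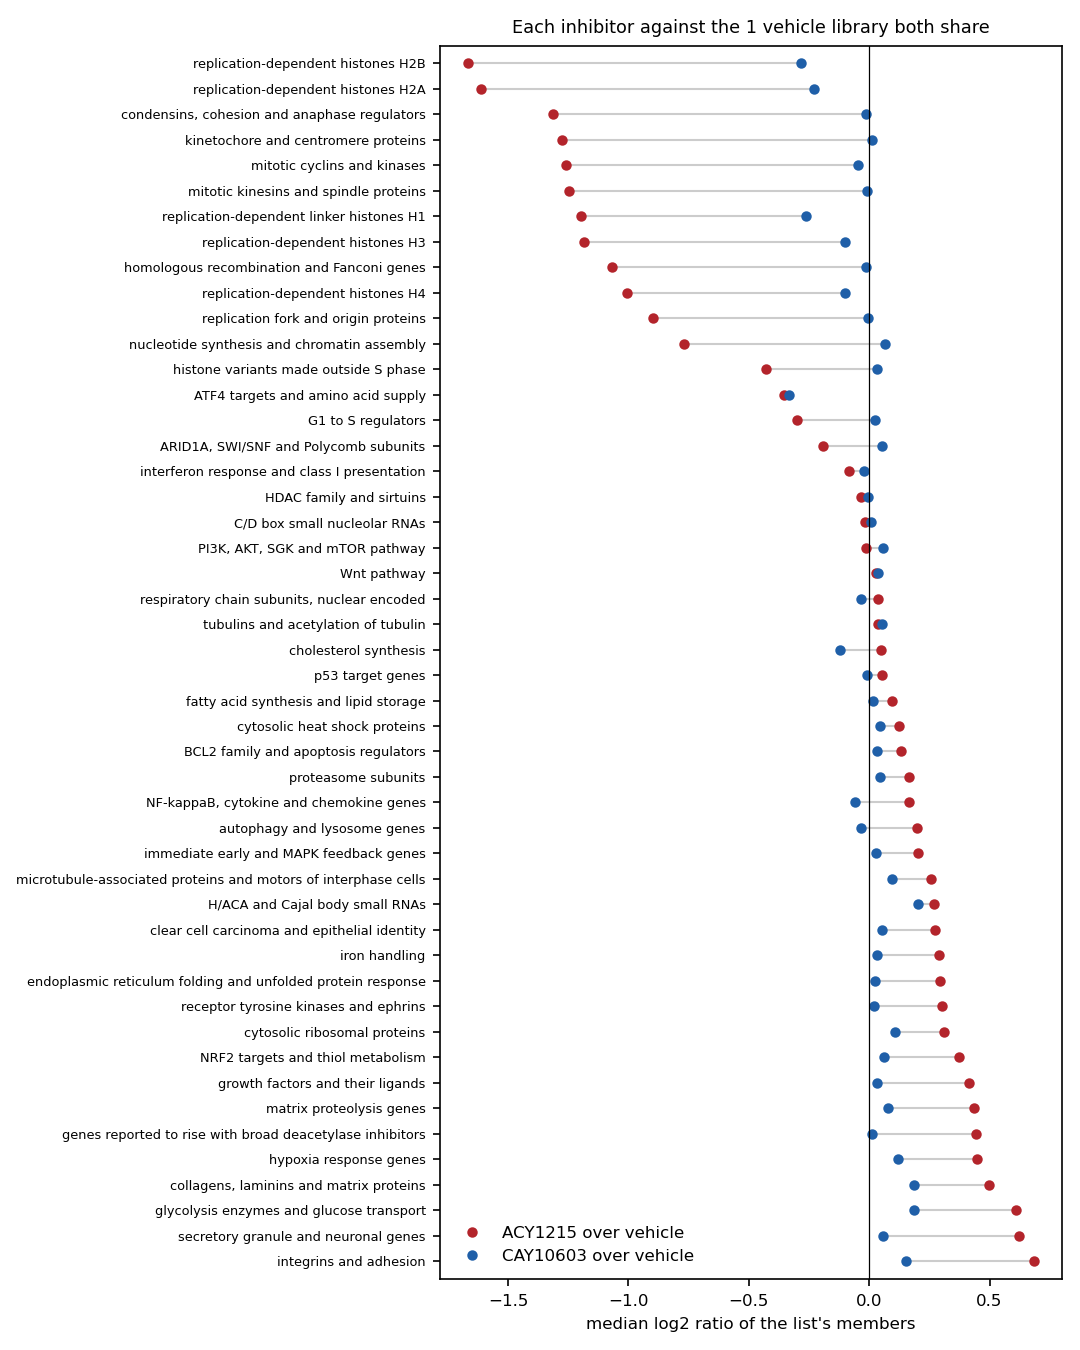
Median log2 ratio (x axis) of each list with at least 3 members above the floor (y axis) for ACY1215 over vehicle (red) and CAY10603 over vehicle (blue); both use the same vehicle library, so the points of a row are not independent. For CAY10603 the medians lie between -0.33 (ATF4 targets) and 0.20 (H/ACA and Cajal body RNAs), and for ACY1215 between -1.66 (H2B histones) and 0.68 (integrins and adhesion).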

How the data were processed

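RNA was isolated with Trizol and sequenced as stranded total RNA, 1 library per treatment, per the labels' protocols. The authors deposited expected counts per gene as whole numbers and FPKM values, per the file headers. RSEM 1.2.3, edgeR and hg19 are named in the submitters' processing notes, with no role for each. No aligner, annotation or strand setting is named in the sources used here. Vehicle values come from the DMSO column, the vehicle being the drug control in the labels, and 0 columns belong to unknown samples. Besides 28442 gene rows the table holds 2 blank rows, left out here, and 27 gene rows carry dates as symbols and were not named.

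Counts were scaled by TMM factors from all 5 libraries (edgeR 4.0.16, R 4.3.3), with a prior count of 2 in each log2 ratio and a floor of 5 CPM in at least 1 of the 2 inhibitor libraries. Levels in CPM carry exact Poisson intervals and ratios exact binomial intervals at 95% (SciPy 1.17.1 in Python 3.11.15), for counting error only. No test was made, since each side has 1 library. Genes were named by rule: the 15 highest and 15 lowest ratios without clone, LOC or date rows, up to 5 members per list by absolute ratio, HDAC6, ARID1A and the genes nearest to 2-fold. Further genes named beside these were chosen after their values were seen: NAPSA, CD3D, TYROBP, ACTA2, COL1A2, WEE1, CKS2, CCND2, CCND3, CDKN2B, CDKN2A, NPTX1, CPE, MCM7, GINS2, LIG1, MALAT1, NEAT1 and H19. The comparison and its 52 gene lists were chosen with earlier results of these data known. Of 1193 listed symbols 9 were not matched. Promoters came from RefSeq (GRCh38.p14), matched by Entrez identifier. The ratio and its interval were tested on simulated data, where the share of intervals holding the planted ratio was judged over all planted genes together. That share was first judged for each planted ratio apart, which was not met throughout, and the rule was then changed. The simulated counts held counting error only, so the test says nothing about the spread between libraries. Alternatives changed the scaling (DESeq2 1.42.0 among them), floor, prior count, fold, unit and rows. Some genes that the rule names are not reported here.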

Additional observations from a re-analysis of the deposited data

How the results depend on the processing

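No gene named by the rule changed the sign of its ratio under the alternatives run on it. Of 48 list medians the sign turned for 3 with upper quartile scaling, 2 each with TMM from the 2 libraries only, total counts, no floor and members of at least 20 CPM, and 1 each with FPKM and a floor of 1 CPM. No paired analysis was possible because each treatment has 1 library, which also leaves no library to leave out. The count of 472 genes at least 2-fold apart stayed between 453 and 473 under the other scalings, prior counts and the authors' FPKM, while the share of these on the higher side went from 50.1% (upper quartile scaling) to 60.5% (FPKM). It was 337 where the whole counting interval had to be past 2-fold and 459 without clone, LOC, date and small RNA rows. The floor and the fold moved it. Apart, higher and lower genes were 964, 423 and 541 at a floor of 1 CPM, 3947, 2339 and 1608 with no floor, 216, 162 and 54 at 20 CPM, 1311, 670 and 641 at 1.5-fold, and 97, 20 and 77 at 3-fold. Lower genes were 110 with a mean of 5 CPM over the 5 libraries. With 5 CPM required in both libraries, chosen after seeing the data, 281 genes were apart and 81 lower. Higher genes outnumbered lower ones at the floor of 5 CPM, and lower ones outnumbered higher ones at a floor of 1 CPM and at 3-fold.

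Medians of lists are called moved here when they left the median counting interval of their members, a narrow band. With 5 CPM in both libraries, they were 1.16 for spindle genes, 1.41 for H2B, -0.33 for secretory and neuronal genes, -0.029 for genes of broad deacetylase inhibitors, -0.19 for matrix, -0.087 for interferon and -0.00069 for H/ACA RNAs. For members of at least 20 CPM they were 1.16 for spindle genes, -0.40 for secretory and neuronal genes, -0.029 for genes of broad deacetylase inhibitors, -0.35 for NRF2 targets, -0.24 for interferon, -0.25 for clear cell identity, 0.91 for H4 and -0.092 for C/D box RNAs. A mean of 5 CPM gave -0.40 for secretory and neuronal genes and -0.19 for matrix. A floor of 1 CPM gave -0.98 for secretory and neuronal genes, -0.45 for growth factors, -0.35 for NRF2 targets, -0.22 for clear cell identity and 1.23 for H3. No floor gave -0.50 for iron, -0.46 for growth factors, -0.36 for genes of broad deacetylase inhibitors, -0.34 for NRF2 targets, -0.29 for matrix, -0.37 for proteolysis, -0.087 for interferon, 0.77 for H1 and 1.23 for H3. FPKM gave 1.04 for nucleotide synthesis, 1.05 for H1, -0.29 for glycolysis, -0.0086 for the respiratory chain, -0.23 for folding, -0.25 for NRF2 targets, 0.084 for deacetylases, -0.18 for matrix, -0.23 for proteolysis, -0.10 for receptor kinases, 0.066 for interferon, -0.13 for clear cell identity and 0.00 for C/D box RNAs. Total counts gave 1.06 for H1, 0.51 for histone variants, -0.31 for glycolysis, -0.28 for hypoxia, 0.0022 for the respiratory chain, -0.24 for NRF2 targets, 0.079 for deacetylases, -0.17 for matrix, -0.23 for proteolysis, -0.15 for receptor kinases, -0.22 for growth factors, -0.13 for clear cell identity and -0.14 for ribosomal proteins. Upper quartile scaling gave -0.32 for NRF2 targets, 0.98 for H1 and -0.22 for ribosomal proteins. The causes of these moves were not tested, beyond the change in which genes a floor admits.

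Of 259 named genes, 56 of 257 with an FPKM value moved out of their counting interval on that scale and 47 with total counts, and none changed sign. Depth limits the lowest genes: 3 counts were 0.0571 CPM with ACY1215 and 0.0617 with CAY10603. This rough limit for a count of 0 lies below the upper end of the exact Poisson interval used for levels. Doses, times and the spread between cultures are not in these data, so no difference here can be set against replicate error.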

Other observations

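Genes were also grouped by the letters of the symbol before the first digit, a naming group and not a pathway, which gave 114 stems with at least 10 genes above the floor. Histone genes (HIST) had the highest median ratio of CAY10603 over ACY1215, at 1.23, and the helicase and origin genes (MCM) the next, at 0.79 with 10 of 10 higher. The stems PARP, RAD, CEP and LSM followed at 0.35, 0.33, 0.30 and 0.29. CEP genes encode centrosomal proteins, of which 21 of 28 were higher with CAY10603, and LSM genes encode parts of RNA processing rings, of which 10 of 11 were higher. At the lower end stood GALNT at -0.48, the enzymes that start O-linked glycosylation, with 8 of 10 lower, then the tetraspanins (TSPAN) at -0.45 with 9 of 12 lower and the semaphorins (SEMA) at -0.33 with 10 of 12 lower. The palmitoyltransferases (ZDHHC) had a median of -0.19, and the stems SEC and RPL of -0.17 each.

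The long noncoding RNAs MALAT1, NEAT1 and H19, chosen after their values were seen, also separated the inhibitors. Noncoding genes grouped by stem did not. Of 20 LINC genes 12 were lower with a median of -0.12, and of 10 SNHG genes 5 were lower with a median of 0.0016. None of either stem was 2-fold apart. MALAT1, a nuclear RNA of splicing speckles, was at 8213 CPM with ACY1215, 3484 with CAY10603, 3578 in vehicle, 5571 in shControl and 4102 in shHDAC6, a ratio of -1.24. NEAT1, the scaffold of paraspeckles, was at 387 and 138 CPM with ACY1215 and CAY10603, with 178 in vehicle, a ratio of -1.48. ACY1215 was the highest of the 5 libraries for both, and the share of small structured RNAs was higher with ACY1215 as well, at 4.25% against 3.19%. The part of these nuclear RNAs in the other differences was not tested. H19, an imprinted noncoding RNA, lay the other way at 1.89 CPM with ACY1215 and 5.24 with CAY10603, a ratio of 1.46 (1.14 to 1.83). H19 passed the floor with CAY10603 only and had to be higher. Small nucleolar RNAs of the C/D box class had a median of 0.30 over 9 genes, led by SNORD87 at 1.15, which is listed at 0 FPKM in both libraries, and those of the H/ACA class and Cajal bodies had a median of -0.14 over 14 genes. Of the latter, 2 passed with ACY1215 only, and the median over the other 12 was -0.00069. The C/D box median was -0.092 for members of at least 20 CPM and 0.00 on FPKM.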
